A study of Mus musculus with 4 samples.

Results

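Insulin signalling and glucose uptake genes of epididymal adipose tissue are described here in obese mice with different dietary histories. The 9 genes were chosen by symbol for their roles in the pathway: Insr, Irs1, Irs2, Pik3r1, Akt2, Tbc1d4, Foxo1, Slc2a4 and Grb14. They are 9 of the 24421 genes in each deposited matrix, and all 9 were among the 14106 genes that passed the filter on low values.

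All mice were wild-type males of strain C57BL/6J. The group labelled weight-cycling (WC1) was given high-fat diet (HFD) for 8 weeks from 8 weeks of age, then standard diet (SD) for 2 weeks, then HFD for another 6 weeks. The group labelled high-fat control (Ctrl) began HFD at 10 weeks of age and stayed on it without a break for 14 weeks, so both groups were 24 weeks old at the end and had the same 14 weeks of HFD in total. Whole epididymal fat was sequenced as poly(A) RNA, with 2 libraries per group. The labels do not say whether the libraries of a group came from separate or pooled animals, so the p-values measure only the spread between these libraries.

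Insulin binds its receptor, a tyrosine kinase, which phosphorylates the substrate proteins IRS1 and IRS2. These recruit PI3-kinase, whose lipid product activates the kinase AKT2. In adipocytes, AKT2 phosphorylates TBC1D4 and so lets vesicles carrying the glucose transporter GLUT4 reach the cell surface, and it keeps the transcription factor FOXO1 out of the nucleus.

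The 4 libraries held between 61465029 and 90965297 reads. The members had between 1008 and 18715 reads in a library, which gives a counting error (1 SD, Poisson) of 3.15% for the smallest of them. Replicates differed beyond sampling noise, with a chi-square per degree of freedom of 37.0 in Ctrl and 93.4 in WC1. The tissue was checked by markers. All 18 adipocyte markers, such as Adipoq and Plin1, were detected in every library, and of 6 epididymis genes 4 were at 0 in all libraries, the highest value being 3.02 CPM of Adam7 in WC1 1.

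Of the 9 members, 4 rose in WC1 (Irs1, Irs2, Akt2 and Slc2a4) and 0 fell, by limma at an adjusted p under 0.05. Over all 14106 tested genes, 10.2% were called higher and 7.71% lower. At an unadjusted p under 0.05 there were 7 members, all of them higher and 0 lower, against 5329 of the 14106 tested genes in either direction. By edgeR and by DESeq2, too, 0 members were called lower. The median log2 fold change was 0.42 over the members and -0.02 over all tested genes. In 8 members both WC1 libraries lay above both Ctrl libraries, as did those of 32.7% of all tested genes, and in 0 members both lay below, against 36.6% of all genes. Without Ctrl 1, or without Ctrl 2, 0 members were called, and 6 or 12 genes in all, while the median over the members was 0.37 and 0.46. Without WC1 1, 6 members were called higher and 1, Pik3r1, lower, against 17.2% and 19.5% of all genes. Without WC1 2, 5 were called higher, against 10.1%. Each fit without a library leaves 1 library in its group, whose spread is then taken from the other group, so calls made there are given as values only. With no filter on low values 2 members were called higher, against 4.35% of all genes. By DESeq2 it was 7 members, against 15.1% of all genes. After centring on adipocyte marker genes 0 members were called higher and 2 lower, against 0.17% and 79.1% of all genes.

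**Figure D1:**
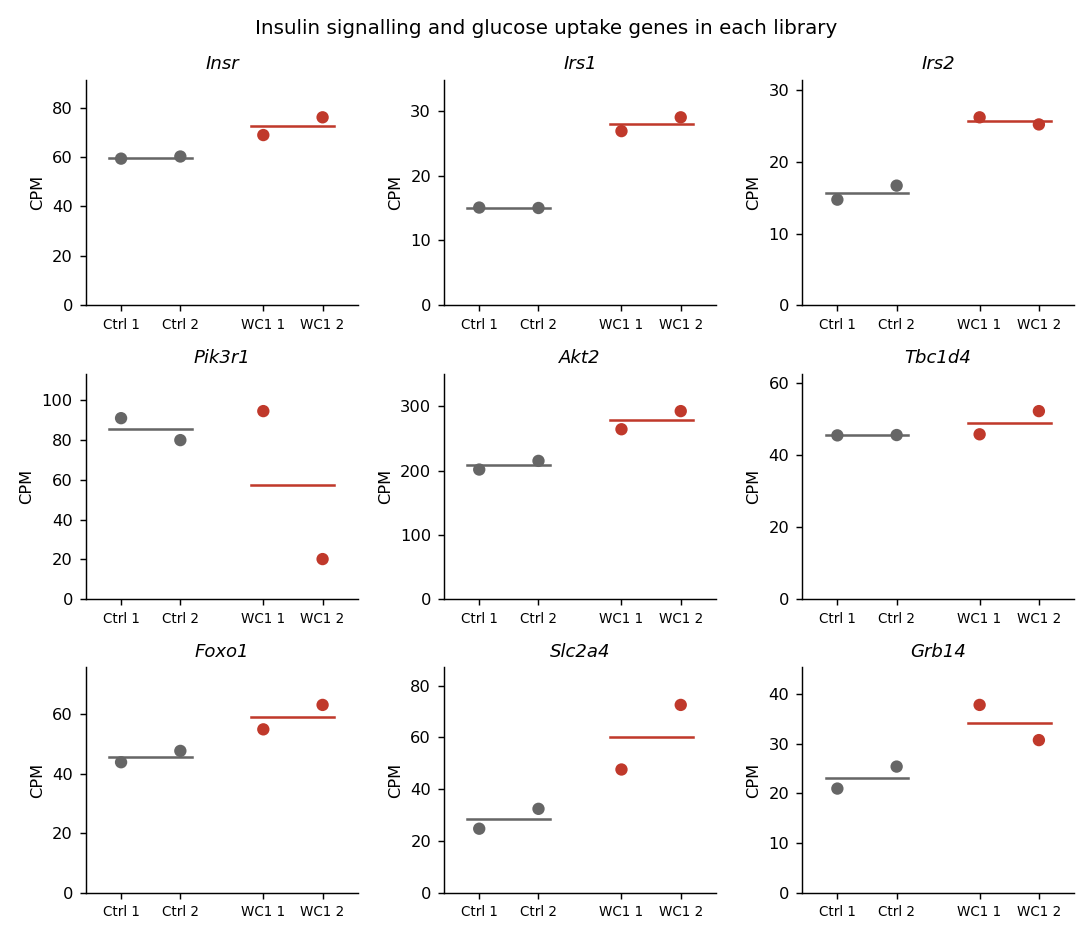
Normalised expression (CPM, vertical axis from 0) of each of the 9 genes in the 4 libraries, Ctrl in grey and WC1 in red, with a line at each group mean. In 8 genes both WC1 points lie above both Ctrl points, and Pik3r1 is low in WC1 2 alone, at 20.1 CPM.

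**Figure D2:**
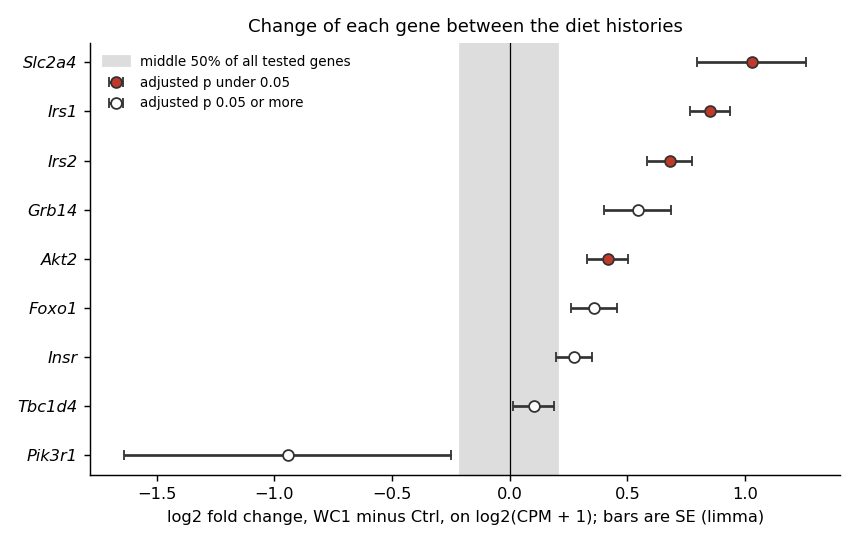
Log2 fold change of each gene, WC1 minus Ctrl on the log2(CPM + 1) scale, with its SE from limma. Filled points have an adjusted p under 0.05, and the grey band holds the middle 50% of all tested genes, from -0.21 to 0.21.

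Insr encodes the insulin receptor (chr8:3122061-3279617 on mm10, minus strand). Its normalised expression was 59.3 and 60.2 CPM in the Ctrl libraries, against 68.9 and 76.0 CPM in the WC1 libraries. The groups did not overlap, and the WC1 libraries differed from each other more than the Ctrl libraries did. The log2 fold change of Insr was 0.27 ± 0.08 (SE), with an adjusted p of 0.070 by limma, so no change was called. DESeq2 called it, and with WC1 2 as the only WC1 library it was called at a log2 fold change of 0.34.

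Irs1 and Irs2 encode the main docking proteins that the receptor phosphorylates, and both rose. Irs1 (chr1:82233101-82291416, minus strand) was at 15.1 and 15.0 CPM in the Ctrl libraries, against 26.9 and 29.0 CPM in the WC1 libraries. Its Ctrl libraries were almost equal, and both WC1 libraries lay far above them. The mean of Irs1 was 15.04 ± 0.047 CPM (SD, n = 2) in Ctrl and 27.9 ± 1.51 CPM in WC1, which is 1.86-fold. Its log2 fold change of 0.85 ± 0.08 had an adjusted p of 0.013 by limma. The rise was larger than the spread within either group. Irs2 (chr8:10984681-11008458, minus strand) was at 14.7 and 16.7 CPM in the Ctrl libraries, against 26.2 and 25.2 CPM in the WC1 libraries. Here too the groups stood well apart. Its mean went from 15.7 ± 1.39 CPM (SD, n = 2) to 25.7 ± 0.70 CPM, which is 1.64-fold. Irs2 had a log2 fold change of 0.68 ± 0.10, with an adjusted p of 0.020. The antisense transcript 9530052E02Rik overlaps the start of Irs2, but it held only 0.35 to 0.54 CPM. Without Ctrl 1 or Ctrl 2 neither substrate was called, although the log2 fold change was 0.85 in both cases for Irs1, and 0.60 and 0.76 for Irs2.

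Because both substrate genes were called higher, their promoters are shown. RefSeq gives a single start for each, and the 250 bases before it on build GRCm38.p6 (mm10) were read, 5′ to 3′ on the minus strand. The Irs1 window is chr1:82291440-82291689 and the Irs2 window is chr8:11008930-11009179. Capitals mark CACGTG, the E-box, and TTGTTTTG, each searched on both strands (CACGTG is its own reverse complement, and CAAAACAA is that of TTGTTTTG).
Irs1: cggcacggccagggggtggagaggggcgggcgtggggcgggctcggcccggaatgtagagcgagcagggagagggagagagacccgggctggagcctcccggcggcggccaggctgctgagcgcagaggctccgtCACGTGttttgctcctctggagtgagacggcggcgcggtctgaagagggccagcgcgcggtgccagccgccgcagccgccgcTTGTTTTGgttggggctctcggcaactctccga
Irs2: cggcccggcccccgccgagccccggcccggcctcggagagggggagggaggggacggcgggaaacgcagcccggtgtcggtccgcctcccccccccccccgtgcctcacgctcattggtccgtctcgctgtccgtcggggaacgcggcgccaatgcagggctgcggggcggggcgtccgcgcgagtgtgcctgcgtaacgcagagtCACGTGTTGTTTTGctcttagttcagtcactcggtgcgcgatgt
In Irs1 the E-box starts 115 bases and TTGTTTTG 33 bases before the start. In Irs2 they start 44 and 38 bases before it and stand directly side by side. Of 32851 RefSeq promoter windows of this length, 6.02% hold CACGTG, 2.21% hold TTGTTTTG, and 33 (0.1%) hold both. TTGTTTTG was chosen after these sequences had been read, so its share is a description only. Of the 11 windows found for 7 members, only these hold either motif. None of the 11 holds GTAAACA, a core sequence of forkhead factors such as FOXO1, which 3.17% of all windows hold. Both windows are rich in G and C (72.4% in Irs1 and 72.8% in Irs2), against a median of 52.4% over all promoters. Both RefSeq starts lie outside the GENCODE gene given above, so these windows and distances depend on the annotation. These are letters in a sequence and no measurement of binding.

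A further substrate gene stood above both. Irs3, which rodents express in fat, was at 17.9 and 22.6 TPM (reads per transcript length, scaled per library) in Ctrl and at 41.4 and 54.3 TPM in WC1. On this scale Irs1 was at 3.14 and 3.16 TPM in the Ctrl libraries, against 6.11 and 6.81 TPM in the WC1 libraries. Irs2 was at 7.01 and 8.03 TPM in the Ctrl libraries, against 13.6 and 13.5 TPM in the WC1 libraries. The order Irs3, Irs2, Irs1 thus held in every library. The log2 fold change of Irs3 on the CPM scale was 1.07 ± 0.16, with an adjusted p of 0.022 by limma. The ratio of Irs1 to Irs2 in TPM was 0.448 and 0.393 in the Ctrl libraries, against 0.448 and 0.503 in the WC1 libraries, so Irs1 lay below Irs2 in every library.

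Pik3r1 encodes p85α, the regulatory subunit through which PI3-kinase binds the substrates (chr13:101680563-101768217, minus strand). Its expression was 91.0 and 79.96 CPM in Ctrl, 94.6 CPM in WC1 1 and 20.1 CPM in WC1 2. The other 3 libraries were thus close together and WC1 2 alone was low. The log2 fold change of Pik3r1 was -0.94 ± 0.69, with an adjusted p of 0.37 by limma. Without WC1 2 it was 0.15, and without WC1 1, with the low library alone in its group, it was -2.03. A drop of at least 1.5 log2 units in a single library, with the other 3 within 0.5, was seen in 9 genes in WC1 2, 10 in WC1 1, 3 in Ctrl 1 and 3 in Ctrl 2, and among the members only in Pik3r1. This definition was set after the value of Pik3r1 had been seen. RefSeq lists more than a single start for Pik3r1, and the matrices give 1 value for the symbol.

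Its paralogs did not share this drop. Pik3r2, another p85 subunit, was at 34.4 and 36.2 TPM in the Ctrl libraries, against 38.8 and 36.5 TPM in the WC1 libraries. Pik3r3, the p55γ subunit, was at 3.504 and 3.06 TPM in the Ctrl libraries, against 6.61 and 8.28 TPM in the WC1 libraries. It rose on the CPM scale (log2 fold change 0.95 ± 0.13, adjusted p 0.020 by limma). Pik3r1 made up 40.6% and 37.3% of the summed TPM of Pik3r1, Pik3r2 and Pik3r3 in Ctrl, 39.3% in WC1 1 and 12.6% in WC1 2.

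Akt2 encodes the AKT kinase on which insulin-stimulated glucose uptake depends (chr7:27591552-27640826, plus strand). It was at 201.6 and 215 CPM in the Ctrl libraries, against 264 and 293 CPM in the WC1 libraries. The groups did not overlap. The mean of Akt2 went from 208 ± 9.54 CPM (SD, n = 2) to 278 ± 19.96 CPM, which is 1.34-fold. Its log2 fold change of 0.42 ± 0.09 had an adjusted p of 0.038 by limma, close to the threshold. Without the filter on low values, and without Ctrl 1 or Ctrl 2, Akt2 was not called.

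Akt1, the more widely used AKT kinase, moved the other way. It was at 186 TPM in both Ctrl libraries and at 161 and 149.97 TPM in WC1. Its log2 fold change on the CPM scale was -0.40, with an adjusted p of 0.037 by limma. On the TPM matrix, with no filter on low values, and without Ctrl 1 or Ctrl 2, Akt1 was not called. The ratio of Akt2 to Akt1 in TPM was 0.667 and 0.725 in the Ctrl libraries, against 1.11 and 1.36 in the WC1 libraries. Akt1 was thus the more abundant of the pair in both Ctrl libraries and Akt2 in both WC1 libraries. No test was run on this ratio.

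Tbc1d4 and Foxo1 encode direct AKT substrates. Tbc1d4 (AS160, chr14:101442360-101609191, minus strand) was at 45.5 and 45.6 CPM in the Ctrl libraries, against 45.8 and 52.2 CPM in the WC1 libraries. Only WC1 2 stood apart from the other 3 libraries. Tbc1d4 had a log2 fold change of 0.10 ± 0.09, with an adjusted p of 0.44 by limma. Foxo1 (chr3:52268336-52353221, plus strand), a transcription factor that insulin holds inactive, was at 43.9 and 47.7 CPM in the Ctrl libraries, against 54.9 and 63.1 CPM in the WC1 libraries. The groups did not overlap, but the WC1 libraries were further apart than those of Ctrl. For Foxo1 the log2 fold change was 0.36 ± 0.10, with an adjusted p of 0.063, and no change was called. DESeq2 called it, and with WC1 2 as the only WC1 library it was called at 0.46. The ratio of Foxo1 to its paralog Foxo3 in TPM was 1.34 and 1.46 in the Ctrl libraries, against 1.49 and 2.11 in the WC1 libraries.

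Slc2a4 encodes GLUT4, the transporter that insulin brings to the adipocyte surface (chr11:69942539-69948188, minus strand). It was at 24.8 and 32.4 CPM in the Ctrl libraries, against 47.6 and 72.6 CPM in the WC1 libraries. All 4 libraries differed, and the lower WC1 library still lay above the higher Ctrl library. The mean of Slc2a4 went from 28.6 ± 5.43 CPM (SD, n = 2) to 60.1 ± 17.6 CPM. This was 2.10-fold. Its log2 fold change of 1.03 ± 0.23 had an adjusted p of 0.044 by limma, close to the threshold. Under the alternatives on the same scale the log2 fold change of Slc2a4 lay between 0.73 and 1.33. It was not called without the filter on low values, nor without Ctrl 1 or Ctrl 2, nor after centring on adipocyte markers, where the difference was 0.03.

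Slc2a1 encodes GLUT1, which carries glucose without insulin, and it fell. It was at 45.4 and 46.6 TPM in the Ctrl libraries, against 23.99 and 20.1 TPM in the WC1 libraries. Its log2 fold change on the CPM scale was -1.18 ± 0.11, with an adjusted p of 0.013 by limma. The ratio of Slc2a4 to Slc2a1 in TPM was 0.369 and 0.476 in the Ctrl libraries, against 1.47 and 2.75 in the WC1 libraries. In Ctrl there was thus more GLUT1 than GLUT4 mRNA, and in both WC1 libraries more GLUT4 than GLUT1. Slc2a4 made up 16.5% and 20.4% of the summed TPM of 11 glucose transporter genes of the family in Ctrl and 35.3% and 44.6% in WC1.

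**Figure D3:**
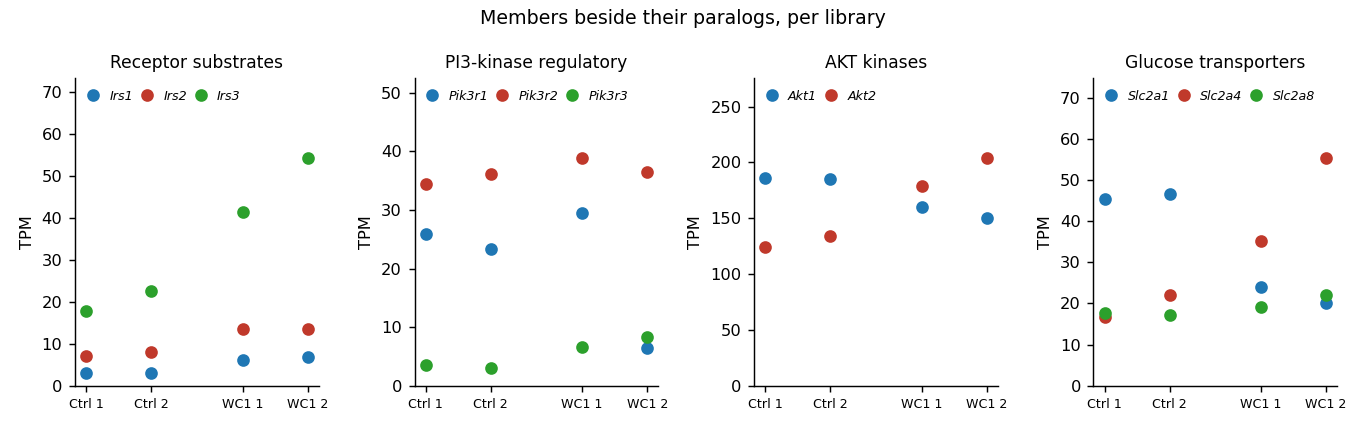
TPM (vertical axis from 0) of members beside their paralogs in the 4 libraries. Akt2 lies under Akt1 in Ctrl and above it in WC1, Slc2a4 lies under Slc2a1 in Ctrl and above it in WC1, and Pik3r1 drops in WC1 2 while Pik3r2 does not.

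Grb14 encodes an adaptor that binds the activated receptor and inhibits its kinase (chr2:64912476-65024987, minus strand). It was at 21.0 and 25.4 CPM in the Ctrl libraries, against 37.8 and 30.7 CPM in the WC1 libraries. The groups did not overlap, although the mean of Grb14 had a spread of 5.01 CPM (SD, n = 2) in WC1. Grb14 had a log2 fold change of 0.54 ± 0.14, with an adjusted p of 0.060 by limma, and no change was called. It was called on the TPM matrix, by DESeq2, and with WC1 1, the higher library, as the only WC1 library. The ratio of Grb14 to Insr in TPM was 1.68 and 2.01 in the Ctrl libraries, against 2.62 and 1.92 in the WC1 libraries, so the inhibitor did not gain on its receptor in both libraries.

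Levels of different genes were compared in TPM. Akt2 was the most abundant member in every library, at 124 and 134.5 TPM in the Ctrl libraries, against 179 and 204 TPM in the WC1 libraries. In Ctrl, Pik3r1, Grb14 and Slc2a4 followed, and the ranges of Pik3r1 and Grb14 overlapped, as did those of Grb14 and Slc2a4. Foxo1, Tbc1d4, Insr, Irs2 and Irs1 came next in that order, without overlap. In WC1 the second place was held by Slc2a4, at 35.2 and 55.3 TPM, whose range overlapped that of Grb14 at 40.1 and 33.7 TPM. By group mean, Foxo1, Pik3r1, Insr and Tbc1d4 lay below them with overlap between neighbours, followed by Irs2 and Irs1. In WC1 2 alone Pik3r1, at 6.43 TPM, was the lowest of the 9 members. The ratio of Slc2a4 to Akt2 in TPM was 0.135 and 0.165 in the Ctrl libraries, against 0.197 and 0.271 in the WC1 libraries.

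Marker genes of the cell types in the tissue moved with these genes. Of the 18 adipocyte markers, 13 were called higher in WC1, and their summed level went from 22946 and 24978 CPM in Ctrl to 36207 and 45573 CPM in WC1. Of 14 macrophage markers, 7 were called lower, and their sum went from 22675 and 20390 CPM to 13769 and 8743 CPM. Of 7 endothelial markers, 5 were called higher, with sums of 421 and 464 CPM in Ctrl and of 820 and 1049.95 CPM in WC1. Adipocyte and endothelial sums were thus higher, and macrophage sums lower, in both WC1 libraries. Of 9 fibroblast and progenitor markers, 3 were called lower, with sums of 9499 and 9188 CPM in Ctrl and of 8365 and 6531 CPM in WC1. Of 10 lymphocyte markers 1 was called higher, with sums of 17.6 and 11.6 CPM in Ctrl, 16.7 CPM in WC1 1 and 43.4 CPM in WC1 2. Of 6 mesothelial markers 0 were called by limma and 0 had an unadjusted p under 0.05, with sums of 122 and 90.5 CPM in Ctrl, 60.7 CPM in WC1 1 and 163 CPM in WC1 2. Both sums were highest in WC1 2, the library with the low Pik3r1 and the highest Slc2a4, Insr and Foxo1. Their part in the changes of the members was not tested, and in whole tissue fewer cells of a type and less RNA per cell cannot be told apart. Markers of skeletal muscle, which also uses GLUT4, summed to 8.73 and 10.9 CPM in Ctrl, and to 20.7 and 20.1 CPM in WC1. Most of this was Acta1, which was called higher (log2 fold change 1.18 ± 0.16, adjusted p 0.020 by limma). Its part in the change of Slc2a4 was not tested. Myh1, Myh2 and Tnnc2 lay higher in both WC1 libraries, at no more than 0.84 CPM (Myh2 in WC1 2). Ckm, Mylpf, Tnnt3 and Tnni2 overlapped between the groups. Myh4 was at 0 in 3 libraries and at 0.06 CPM in WC1 2. The 7 brown adipocyte markers summed to 14.7 and 15.1 CPM in Ctrl, and to 18.1 and 17.0 CPM in WC1. Elovl3 was called higher, at 1.08 and 1.06 CPM in the Ctrl libraries, against 3.23 and 2.95 CPM in the WC1 libraries, and Dio2 was called lower. Cidea and Cox8b lay higher in both WC1 libraries without a call, Zic1 was at 0 in all libraries, and Ucp1 was at 0.11 to 0.26 CPM.

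Each member was also set against the mean log2(CPM + 1) of the 18 adipocyte markers, which was 8.51 and 8.78 in the Ctrl libraries and 9.41 and 9.87 in the WC1 libraries. On this scale Slc2a4 lay at -3.83 and -3.72 in the Ctrl libraries and at -3.81 and -3.67 in the WC1 libraries. Its groups overlapped, and the difference was 0.03 on the log2 scale when all genes were centred this way. The centring moved the median of all genes to -1.01 and called 79.1% of them lower and 0.17% higher. Irs1, at -4.51 and -4.78 in the Ctrl libraries and -4.61 and -4.96 in the WC1 libraries, also overlapped between the groups. The other 7 members lay lower in both WC1 libraries than in both Ctrl libraries. Tbc1d4, with a difference of -0.89, and Pik3r1, with -1.94, were called lower after centring, and 0 members were called higher. The directions given above for the members are thus per read and do not carry over to a level per adipocyte marker RNA. The ratio of Slc2a4 to Adipoq in TPM was 0.017 and 0.018 in the Ctrl libraries, against 0.015 and 0.016 in the WC1 libraries.

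**Figure D4:**
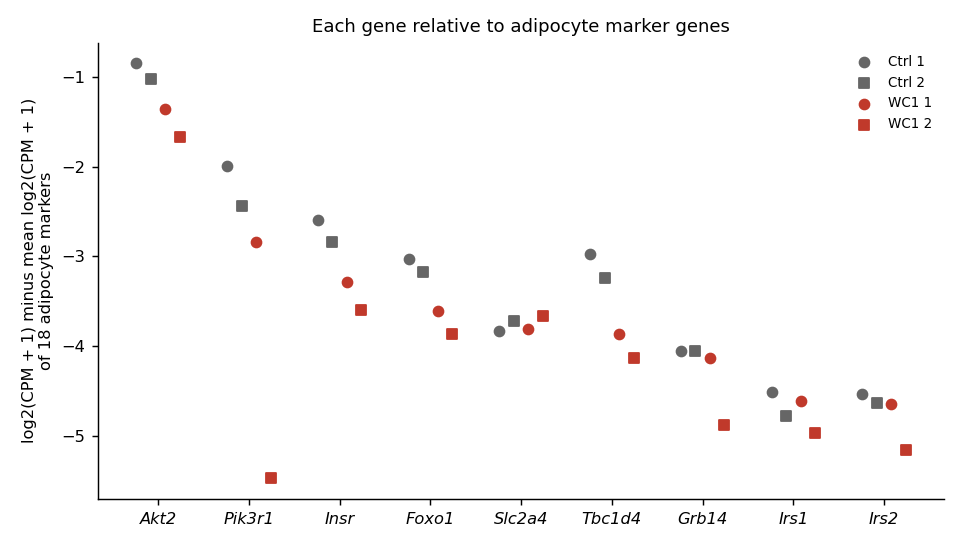
Each member's log2(CPM + 1) minus the mean log2(CPM + 1) of 18 adipocyte markers, per library (circles are replicate 1 and squares replicate 2, Ctrl in grey and WC1 in red). Slc2a4 stays between -3.83 and -3.67 in all 4 libraries, while Akt2, Insr, Tbc1d4 and Foxo1 are lower in both WC1 libraries.

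The genes nearest in profile were sought among 12588 genes by the root mean square difference of centred log2(CPM + 1) over the 4 libraries. Nearest to Slc2a4 were Gstz1, an enzyme of tyrosine breakdown, at 0.011 log2 units, and Notch4, a receptor of endothelial cells, at 0.025. Adhfe1 followed at 0.034. Gstz1 was at 186 and 242 CPM in the Ctrl libraries, against 359 and 541 CPM in the WC1 libraries. Nearest to Insr were Sil1 at 0.0074, Nbas at 0.0076 and Timm23 at 0.0085, and nearest to Grb14 were Enpp3 at 0.046, Cidea at 0.049 and Eda at 0.054. With 4 libraries such a likeness is a description only.

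The rest of the pathway was described with 8 lists of 132 genes, of which 125 were tested. In all, 14 rose and 13 fell, which is 11.2% and 10.4% of the tested genes, against 10.2% and 7.71% of all genes. The median log2 fold change was -0.05. Both shares were near those of all genes and are no result about the pathway. Without Ctrl 1 or without Ctrl 2, 0 pathway genes were called. Without WC1 1, 27 were called higher and 40 lower, against 17.2% and 19.5% of all genes. The counts of each list below are likewise to be read against 10.2% and 7.71% of all genes, and those without WC1 1 against 17.2% and 19.5%. On the TPM matrix 23 were called higher and 8 lower, against 13.7% and 3.88% of all genes, and after centring on adipocyte markers 0 and 93, against 0.17% and 79.1%.

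Of 16 inhibitors of insulin signalling, 2 rose and 3 fell, with a median log2 fold change of -0.11. With no filter on low values it was 1 and 2, against 4.35% and 2.93% of all genes. By DESeq2 it was 2 and 4, against 15.1% and 12.3%. Both counts also moved when a WC1 library was left out. Ptpn1, which encodes the phosphatase PTP1B that removes phosphate from the receptor, was at 195 CPM in both Ctrl libraries and at 122 and 104 CPM in WC1. Its log2 fold change was -0.78 ± 0.10, with an adjusted p of 0.017 by limma. Ptprf, which encodes another phosphatase of the receptor, rose from 24.5 and 26.3 CPM to 42.0 and 49.7 CPM (log2 fold change 0.82 ± 0.11, adjusted p 0.018). Of 11 receptor adaptors, 1 rose, Irs3, and 0 fell. By DESeq2 it was 1 and 2, against 15.1% and 12.3% of all genes, and lower calls also appeared when WC1 1 was left out. Grb2, which links the receptor to RAS, was at 245 and 247 CPM in the Ctrl libraries, against 214 and 186 CPM in the WC1 libraries, with an adjusted p of 0.085.

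Of 10 other PI3-kinase subunits, Pik3r3 rose and Pik3cd fell. By DESeq2, 1 was called higher and 3 lower, against 15.1% and 12.3% of all genes. More were also called lower when WC1 1 or WC1 2 was left out. Pik3cd, the catalytic subunit best known from leukocytes, was at 92.1 and 89.1 CPM in the Ctrl libraries, against 71.8 and 63.0 CPM in the WC1 libraries (log2 fold change -0.42 ± 0.09, adjusted p 0.036 by limma). Pik3cd was not called on the TPM matrix or with no filter on low values. In the AKT and mTOR branch 4 of 21 genes rose and 1, Akt1, fell, against 8 and 3 without WC1 1 and 7 and 0 on the TPM matrix. Deptor, an inhibitor of mTOR, rose from 132 and 146 CPM to 229 and 239 CPM (log2 fold change 0.74 ± 0.08, adjusted p 0.014). Pde3b, the phosphodiesterase through which insulin restrains lipolysis, rose from 89.3 and 101.4 CPM to 149 and 161 CPM (log2 fold change 0.70 ± 0.09, adjusted p 0.018).

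Of 26 genes of GLUT4 vesicle traffic, 1 rose and 4 fell, against 10.2% and 7.71% of all genes, and the median log2 fold change was -0.15. With no filter on low values 0 of them rose, against 4.35% of all genes, and on the TPM matrix 3 rose, against 13.7%. Without WC1 1, 4 were called higher and 11 lower. Doc2b, a calcium sensor of vesicle fusion, fell from 5.29 and 4.77 CPM to 2.41 and 2.07 CPM (log2 fold change -0.90 ± 0.13, adjusted p 0.020 by limma). Of 12 other glucose transporters and hexokinases, 2 rose and 2 fell, among them Slc2a1 and Slc2a6. On the TPM matrix 1 was called higher and 2 lower, against 13.7% and 3.88% of all genes. With no filter on low values it was also 1 and 2, against 4.35% and 2.93%. By DESeq2 it was 3 and 3, against 15.1% and 12.3%. Both counts also moved up when WC1 1 was left out. Slc2a6, a lysosomal transporter of myeloid cells, was at 8.31 and 9.06 CPM in the Ctrl libraries, against 4.23 and 5.004 CPM in the WC1 libraries, with an adjusted p of 0.024.

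Of 17 FOXO factors and FOXO target genes, 3 rose and 0 fell, with a median log2 fold change of 0.29. On the TPM matrix and by DESeq2, 6 were called higher, against 13.7% and 15.1% of all genes, and 0 lower, against 3.88% and 12.3%. More were also called higher when WC1 1 or WC1 2 was left out, and without WC1 1 a lower call appeared. Bnip3, a mitophagy receptor, rose from 138 and 143 CPM to 238 and 309 CPM (log2 fold change 0.94 ± 0.14, adjusted p 0.021 by limma). Pck1, the enzyme that starts glyceroneogenesis in fat, rose from 112 and 118 CPM to 219 and 188 CPM (log2 fold change 0.82 ± 0.10, adjusted p 0.016). Of 12 genes of the RAS and ERK branch, 0 rose and 2 fell, while 0 were called lower on the TPM matrix and 7 without WC1 1. Nras, a RAS protein, had a log2 fold change of -0.38 and an adjusted p of 0.037, and it was not called with no filter on low values.

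**Figure D5:**
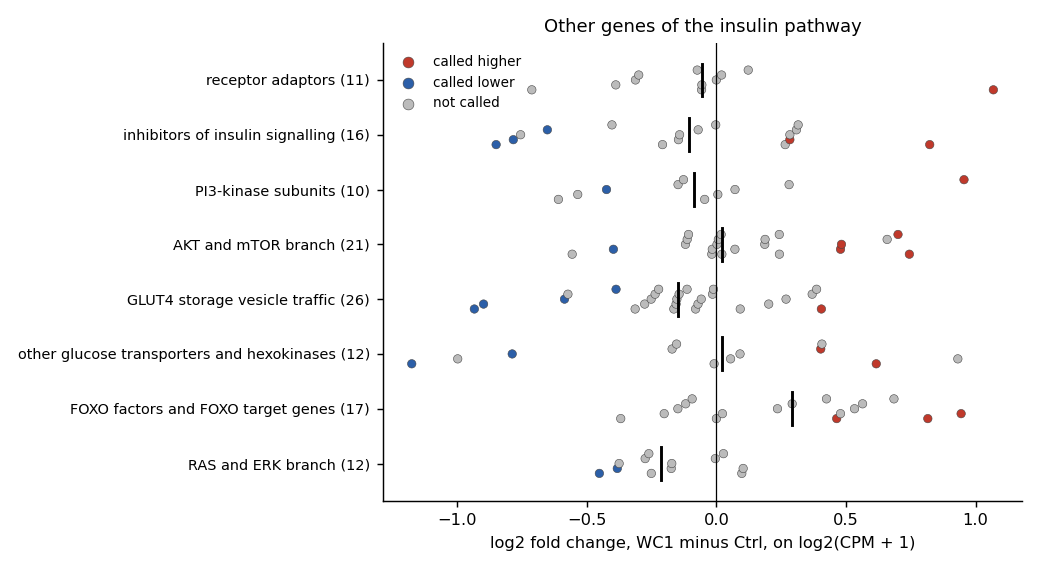
Log2 fold change (WC1 minus Ctrl) of 125 tested pathway genes that are not members, by list, with the number tested in parentheses and a bar at each median. The medians lie between -0.21 and 0.29, with the FOXO list at 0.29 and the RAS and ERK list at -0.21.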

How the data were processed

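RNA-seq of epididymal adipose tissue was analysed in 4 libraries, 2 of Ctrl and 2 of WC1, grouped by their titles. The authors deposited a pair of gene matrices. The first, named CPM, is a deposited signal proportional to reads, since the authors scaled each library to its own size and the columns summed to 97.6% to 105% of plain CPM. Its values were whole multiples of 1 read for 100% of entries (tolerance 0.01 read), so read counts were recovered. In the second the authors deposited TPM. The submitters' processing notes name fastp, HISAT2, StringTie and mm10. In the sources used here the annotation and the strand setting of the counting are not stated.

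The filter asked for 0.5 CPM or more in 2 or more libraries (14106 kept, 10315 removed). Values were taken as log2(CPM + 1), which understates the change of low genes, and the groups were contrasted by limma 3.58.1 (trend, two-sided) in R 4.3.3. P-values were adjusted by Benjamini and Hochberg over the 14106 genes, and 0.05 was the threshold. An exact permutation test of 2 against 2 cannot go below 0.333. Errors are SD of 2 libraries for means and SE for fold changes. A count of 3 reads came to 0.0345 to 0.0492 CPM. The fit was tested on simulated data. Alternatives used edgeR 4.0.16 and DESeq2 1.42.0 on the recovered reads, other pseudocounts, filters and scalings, TPM, the replicate number as a term, and each library left out.

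The members and gene lists were chosen with earlier results of these data known. Named genes were the members, the 2 genes of each pathway list with the smallest p, and the 3 nearest in profile to Slc2a4, Insr and Grb14. Paralogs beside members (Irs3, Pik3r2, Pik3r3, Akt1, Foxo3, Slc2a1, Slc2a8), Adipoq and marker genes were named by family or as markers, outside that rule. Some genes that the rule names are not reported here. Coordinates of genes are from GENCODE M21 and promoters from RefSeq GRCm38.p6, which holds entries for 7 of the 9 members.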

Additional observations from a re-analysis of the deposited data

How the results depend on the processing

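The results were recomputed under 15 alternatives. Irs1 and Irs2 were called under 12 of them, and Akt2 and Slc2a4 under 11. Members called higher, 4 as reported, were 2 without the filter, 0 after centring on adipocyte markers, 7 by DESeq2 (with Insr, Foxo1 and Grb14) and 0 to 6 when a library was left out, while 15.1% of all genes were called higher by DESeq2, and 17.2% and 10.1% without WC1 1 and WC1 2. Members called lower, 0 as reported, were 2 after centring and 0 to 1 when a library was left out. Pathway genes called higher, 14 as reported, were 23 on TPM, 0 after centring, 23 by DESeq2 and 0 to 27 when a library was left out. Pathway genes called lower, 13 as reported, were 8 on TPM, 93 after centring, 23 by DESeq2, 22 with the replicate block and 0 to 40 when a library was left out. These pathway counts are to be read against the shares of all genes. DESeq2 called 15.1% of all genes higher and 12.3% lower, against 10.2% and 7.71% as reported. The replicate block called 12.5% higher and 10.6% lower, and 21 pathway genes higher. On TPM it was 13.7% and 3.88% of all genes, and after centring 0.17% and 79.1%. The TPM matrix moved the median of all genes to 0.10 and called 1949 genes higher and 552 lower, against 1443 and 1088. The log2 fold change of Pik3r1 ranged from -2.03 to 0.15 when a library was left out. Centring turned the sign of Insr (-0.72), Irs1 (-0.14), Irs2 (-0.31), Akt2 (-0.58), Tbc1d4 (-0.89), Foxo1 (-0.64), Grb14 (-0.45), Deptor (-0.25), Pde3b (-0.29), Pck1 (-0.18), Bnip3 (-0.051), Pik3r3 (-0.040) and Ptprf (-0.17), by construction, since the markers rose. The replicate block called 5 members higher, adding Foxo1, with 12.5% of all genes called higher. Nothing in the labels pairs libraries by number, and the differences between libraries 1 and 2 correlated across genes with r = 0.19 between the groups, so the block is not taken as a pairing. A fit without a library leaves 1 sample in that arm, assumed to vary like the other group. No fit at reduced depth was run, so whether depth limits the calls of low genes was not tested.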
